A study of Mus musculus with 12 samples.

Results

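Glutathione and antioxidant enzymes were examined in the cerebellum of BALB/c mice with and without the cholesterol transporter Npc1. The genes were taken by symbol, with no measured value in the rule, although the families were chosen with earlier results of these data known. They comprised every probe set annotated to exactly 1 gene of the glutathione transferase, glutathione peroxidase, peroxiredoxin, superoxide dismutase and thioredoxin families, together with Gclc, Gclm, Gss, Gsr, Cat, Nqo1, Mt1, Mt2 and Mt3. This gave 100 probe sets of 59 genes, out of 22690 probe sets and 12393 genes with a symbol of their own. Of the 59 genes, 31 had 1 probe set and 28 had several.

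Cerebellar RNA from 12 mice had been hybridised to 12 Affymetrix arrays, 3 arrays in each of 4 groups, and every array was an individual animal per the labels. The groups were Npc1+/+ (wild type) and Npc1-/- (null) mice at postnatal day 21 (P21) and postnatal day 49 (P49), all on the BALB/c Npc1 strain. The labels name no drug or other treatment, and all animals had standard chow. Npc1 moves cholesterol out of late endosomes and lysosomes, its loss causes Niemann-Pick type C disease, and the null mice lack it in every cell and not in a chosen cell type.

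Glutathione is made from glutamate, cysteine and glycine by glutamate-cysteine ligase (Gclc with its modifier Gclm) and glutathione synthetase (Gss), and glutathione reductase (Gsr) returns it to the reduced form. Transferases join it to reactive compounds, peroxidases spend it on peroxides, and the thioredoxin and peroxiredoxin system does related work with a protein as the electron donor. Superoxide dismutases and catalase act without glutathione, and metallothioneins bind zinc and copper and take up radicals through their cysteines. In the brain, astrocytes hold much of the glutathione supply, and many of these genes are known targets of the transcription factor NRF2 (Nfe2l2).

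Levels are given as log2(intensity + 16) after quantile normalisation, and a level of 1 gene cannot be set against that of another gene because probe sets differ in brightness. Differences are log2 differences ± limma's standard error with n = 3 animals a group. A gene was called when its Benjamini-Hochberg adjusted p over the 7835 genes tested was under 0.05. A gene was tested when its mean over all arrays reached 9.93, the 40th percentile, and 45 of the 59 genes did. In whole tissue, fewer cells of a type and less RNA per cell cannot be told apart.

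The tissue label was checked against markers: all 12 Purkinje cell markers and all 10 granule neuron markers on the array lay above the filter level. Npc1 itself read 8.25 to 10.53 on the null arrays and 11.06 to 11.75 on the wild-type arrays, with no overlap. Sex-linked genes went against the sex label on 4 arrays. Wild type P21 replicate 2 and null P21 replicates 2 and 3 are labelled female but had Xist, a transcript of the inactive X chromosome, at 9.28, 13.01 and 13.36 and the Y-linked gene Eif2s3y at 12.72, 9.25 and 12.67. Null P49 replicate 1 is labelled male but had Xist at 15.63, within the 15.61 to 15.86 of the remaining arrays, and Eif2s3y at 7.93. The calls that changed without these 4 arrays are given beside the genes concerned.

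No gene of the 45 tested was called between null and wild-type cerebella at P21, and Gpx3, Gpx8 and Mgst1 were higher in null animals at P49. Gpx3, the secreted plasma form of glutathione peroxidase, was 9.60-fold higher. Gpx8, a peroxidase of the endoplasmic reticulum membrane, was 2.28-fold higher, and Mgst1, a membrane-bound glutathione transferase with peroxidase activity, was 1.40-fold higher. No member was called lower in null animals at either age. The other families (synthesis and recycling, soluble transferases, peroxiredoxins, superoxide dismutases, catalase and thioredoxins) had no gene called between the genotypes at either age. Only 3 peroxiredoxin genes were among the members.

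At P49, 3 of 45 members were higher (6.67%) beside 1.52% of all genes tested, and 0 of 45 were lower beside 1.14%, with none lower at an unadjusted p under 0.05 either. Gpx3 entered the test only through its level in null P49 animals, so its call is not counted as evidence about the group, and 44 members passed the filter on the wild-type arrays by themselves. When the filter was set on the wild-type arrays, Gpx3 was not tested and 1 of 44 members, Gpx8, was called. Under that filter 180 of 7821 genes were called in either direction, so the members' share was near that of all genes. An unadjusted p under 0.05 at P49 was reached by 8 members (17.8%) beside 11.3% of all genes. The 3 called members, these 8 and the counts that follow in this paragraph all include Gpx3. They are therefore raised by a gene that was tested only because of its null P49 level. The groups did not overlap for 11 members (24.4%) beside 23.2% of all genes, which is near the background. Of the 45 differences 31 were positive (68.9%) beside 45.9% over all genes, with medians of 0.04 for the members and -0.02 for all genes. Centring arrays on their medians, which moved the median of all genes to -0.09, left 18 positive and a members' median of -0.04.

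Gpx3 read 8.85, 8.82 and 9.08 on the 3 wild-type P49 arrays and 11.72, 12.51 and 12.32 on the 3 null P49 arrays. On the P21 arrays it read 7.49, 8.48 and 10.26 in wild type and 9.63, 10.07 and 10.47 in null. The null P49 arrays stood above all 9 others, while the P21 groups overlapped because wild type P21 replicate 3 was as high as the null animals. In deposited intensity units the wild-type P49 arrays lay between 436 and 525.5 and the null P49 arrays between 3465 and 5871. The genotype difference in Gpx3 was 3.26 ± 0.51 at P49 (limma, adjusted p = 0.00211) and 1.31 ± 0.51 at P21 (adjusted p = 0.451). The wild-type mean lay below the filter level at both ages, so the size of the fold is less certain than its direction. With the 7835 genes kept and each null P49 array left out in turn, the P49 difference was 3.10 to 3.49. Its adjusted p in limma was 0.00449 to 0.0192. Without the 4 arrays that went against their sex label the difference was 3.49. These fits kept Gpx3 by the filter on all arrays, which it passed only through its level in null P49 animals. With the filter set anew, the fits that left Gpx3 untested include those without null P49 replicate 2 or 3. The values thus give the size of the difference, and do not show that the call survives the loss of these arrays.

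Gpx8 read 9.83, 9.94 and 9.40 on the wild-type P49 arrays and 10.85, 10.87 and 11.02 on the null P49 arrays. At P21 it read 10.03, 10.50 and 10.34 in wild type and 10.30, 10.17 and 10.31 in null. Null P49 animals were the highest of the 4 groups and wild-type P49 animals the lowest, with no overlap with any other group, and the P21 groups overlapped. The difference in Gpx8 was 1.19 ± 0.20 at P49 (limma, adjusted p = 0.00410) and -0.03 ± 0.20 at P21 (adjusted p = 0.964). Gpx8 passed at P49 under all 26 alternative settings, with adjusted p from 0.00136 to 0.0356.

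Mgst1 read 12.78, 12.53 and 12.95 on the wild-type P49 arrays and 13.14, 13.36 and 13.21 on the null P49 arrays. At P21 it read 12.43, 12.30 and 12.37 in wild type and 12.54, 12.53 and 12.54 in null. Null arrays lay above wild-type arrays without overlap at both ages. The difference was 0.49 ± 0.12 at P49 (limma, adjusted p = 0.0478) and 0.17 ± 0.12 at P21 (adjusted p = 0.601). The P49 call was close to the threshold and was lost in 17 of 25 alternatives, among them those without 1 of 9 arrays (wild type P21 replicates 1, 2 and 3, null P21 replicate 3, wild type P49 replicates 1 and 2, and null P49 replicates 1, 2 and 3). Over all alternatives its adjusted p ran from 0.0258 to 0.271.

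**Figure D1:**
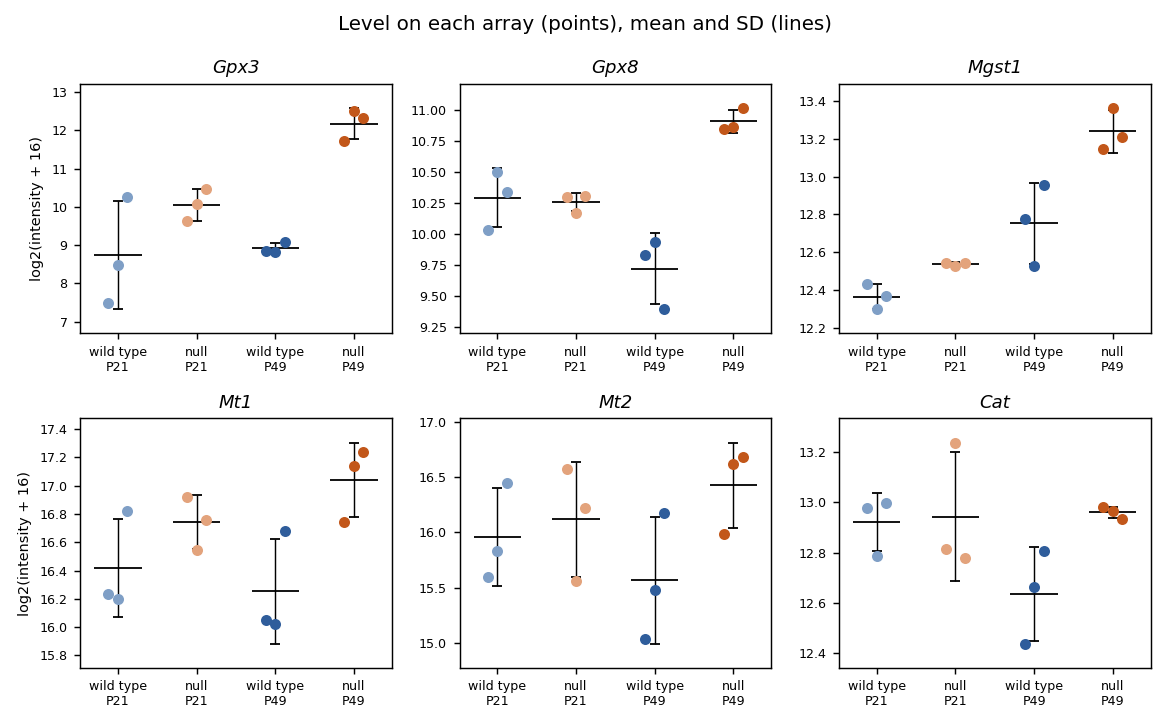
Level of 6 member genes on every array. Points are single animals, long lines group means and short lines SD (n = 3), the vertical axis is log2(intensity + 16), with a scale of its own for each gene. For Gpx3 and Gpx8 the 3 null P49 animals stand above all 9 others, while for Mt2 wild-type and null animals overlap at both ages.

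The remaining peroxidases did not pass the test between genotypes. Gpx1, the cytosolic enzyme, differed by 0.16 ± 0.15 at P49, and Gpx4, which reduces lipid hydroperoxides inside membranes, by 0.04 ± 0.15. Gpx2 and Gpx7 differed by 0.01 ± 0.34 and 0.12 ± 0.25. Gpx5 and Gpx6 were below the filter.

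Among members that did not pass at P49, the metallothioneins Mt1 and Mt2 had the smallest p. Mt1 read 16.05, 16.03 and 16.68 on the wild-type P49 arrays and 16.74, 17.14 and 17.24 on the null P49 arrays, and at P21 it read 16.24, 16.20 and 16.82 in wild type and 16.92, 16.54 and 16.76 in null. The P49 groups of Mt1 were separated by a narrow gap and the P21 groups overlapped. The difference in Mt1 was 0.79 ± 0.20 at P49 (limma, adjusted p = 0.05005) and 0.32 ± 0.20 at P21 (adjusted p = 0.560). Mt1 passed in 10 of 26 alternatives, with adjusted p from 0.0133 to 0.414 over all of them. Those in which it passed include the fit without the 4 arrays that went against their sex label (adjusted p = 0.0139) and those that leave out replicate 3 of wild type P21 (0.0268), replicate 1 (0.0473) or 2 (0.0266) of null P21, replicate 3 of the wild-type animals at P49 (0.0139), or replicate 1 of the null animals at that age (0.0327).

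Mt2 read 15.04, 15.48 and 16.18 on the wild-type P49 arrays and 15.98, 16.62 and 16.68 on the null P49 arrays, so the groups overlapped, and its difference was 0.86 ± 0.31 (limma, adjusted p = 0.240). In all 4 groups the array that was highest for Mt1 was also highest for Mt2. Mt3, the form of the family found mainly in brain, differed by 0.29 ± 0.25 at P49 (adjusted p = 0.796). Mt1 is represented by a probe set of a kind that can share signal with near-identical transcripts.

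RefSeq promoter windows on assembly GRCm38.p6 are shown for the 3 genes called higher in null and for Mt2. They can be read beside the known motifs of antioxidant and metal response. Each window holds the bases before the first listed start of the gene, without bases inside the gene, and is written in the direction of transcription. Gpx3 lies at chr11:54902604-54902853 on the plus strand, Gpx8 at chr13:113046431-113046638 on the minus strand, Mgst1 at chr6:138140277-138140526 on the plus strand and Mt2 at chr8:94172368-94172617 on the plus strand. Capitals mark matches on either strand to TGACNNNGC, searched for the antioxidant response element, or to TGCNCNC, searched for the metal response element. These are called antioxidant and metal matches here. Both strings leave more bases open than the elements do, so a match does not by itself show such an element.
Gpx3: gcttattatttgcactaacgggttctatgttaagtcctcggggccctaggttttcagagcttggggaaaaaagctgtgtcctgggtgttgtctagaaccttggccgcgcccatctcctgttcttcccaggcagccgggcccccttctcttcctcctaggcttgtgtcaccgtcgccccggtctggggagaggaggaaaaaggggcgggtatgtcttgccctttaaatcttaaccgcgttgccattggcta
Gpx8: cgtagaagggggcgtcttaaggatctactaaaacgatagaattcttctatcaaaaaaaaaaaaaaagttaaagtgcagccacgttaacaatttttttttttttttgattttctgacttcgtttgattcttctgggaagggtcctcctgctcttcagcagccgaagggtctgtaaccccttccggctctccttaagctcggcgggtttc
Mgst1: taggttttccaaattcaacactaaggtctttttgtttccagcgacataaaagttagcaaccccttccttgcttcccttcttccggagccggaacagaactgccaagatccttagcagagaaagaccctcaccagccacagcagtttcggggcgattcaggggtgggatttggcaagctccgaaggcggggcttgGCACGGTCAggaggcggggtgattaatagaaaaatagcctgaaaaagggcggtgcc
Mt2: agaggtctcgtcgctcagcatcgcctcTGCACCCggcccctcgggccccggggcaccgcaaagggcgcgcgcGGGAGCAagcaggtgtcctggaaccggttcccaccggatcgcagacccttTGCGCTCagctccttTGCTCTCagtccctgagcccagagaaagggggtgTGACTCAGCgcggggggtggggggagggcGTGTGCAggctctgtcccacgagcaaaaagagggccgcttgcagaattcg

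The windows of Gpx3 and Gpx8 held neither motif, which says only that these letters are not in these windows. The window of Mgst1 held 1 antioxidant match, on the reverse strand (GCACGGTCA). The window of Mt2 held 1 antioxidant match (TGACTCAGC) and 5 metal matches, 3 forward and 2 reverse. The background was 32851 RefSeq promoter windows of at least 250 bases, each searched in its first 250 bases, before the start. Of these, 10.2% held at least 1 antioxidant match and 44.4% at least 1 metal match. At least 5 metal matches were found in 0.344%. For the 52 member genes found in that table, 10 of 68 windows (14.7%) held an antioxidant match and 30 (44.1%) a metal match, so the members' share of metal matches was near the background.

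Among the genes of synthesis and recycling, Gclc had the smallest p of all members at P21. Gclc, the catalytic subunit of the rate-limiting ligase, read 13.02, 12.99 and 12.81 in wild type and 12.67, 12.36 and 12.60 in null at P21. At P49 it read 13.05, 12.91 and 13.06 in wild type and 12.97, 13.06 and 13.02 in null. Null animals were below wild-type animals at P21 without overlap and lay among them at P49. The difference in Gclc was -0.40 ± 0.11 at P21 (limma, unadjusted p = 0.00351, adjusted p = 0.328), and 0.01 ± 0.11 in the older animals (adjusted p = 0.991), both short of the threshold. Gclm, Gss and Gsr differed by 0.25 ± 0.18, -0.28 ± 0.16 and 0.10 ± 0.19 at P21 and by 0.06, -0.02 and 0.14 at P49, none of them past the threshold.

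Over all members at P21, 0 of 45 were called beside 0.0638% of all genes, which was 5 genes. An unadjusted p under 0.05 was reached by 4 members (8.89%) beside 10.1% of all genes: Gclc, Gstm1, Gpx3 and Txndc12. The groups did not overlap for Gclc and Gstz1, lower in null, and Mgst1, higher in null, which is 6.67% of members beside 11.8% of all genes. On these 3 counts the members' share at P21 was not above that of all genes, and the counts are too small to place it below. Positive differences at P21 made up 55.6% of members and 49.3% of all genes.

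**Figure D2:**
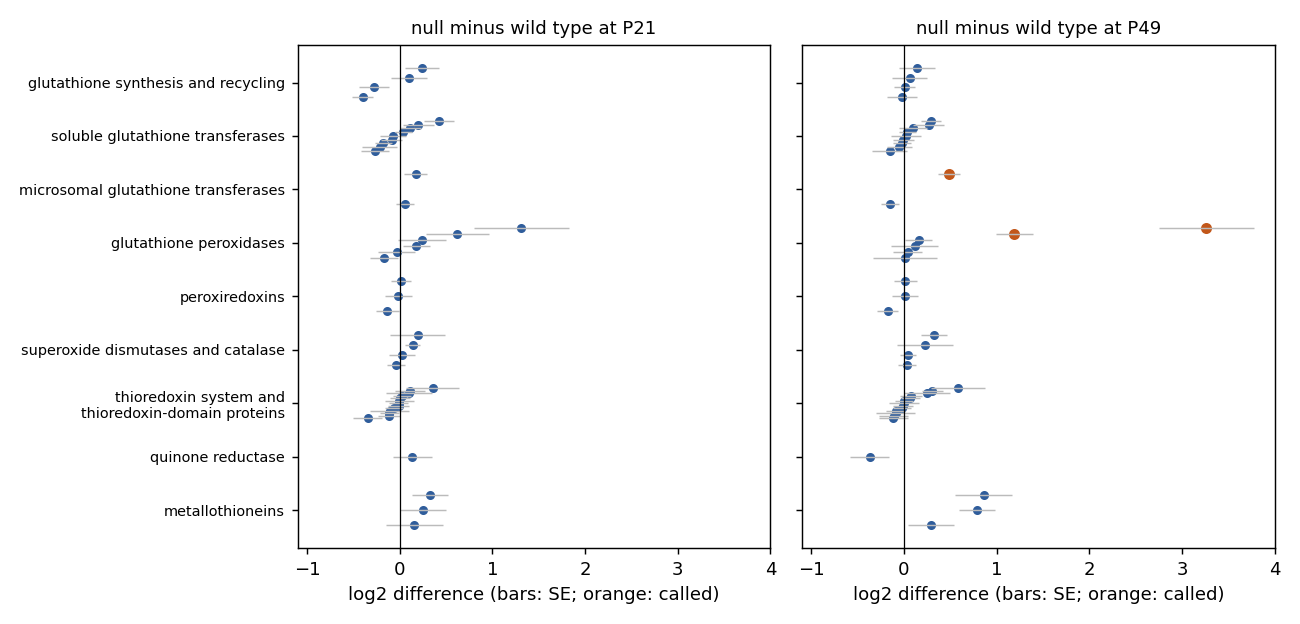
Null minus wild type difference of each of the 45 tested member genes, by role, at P21 (left) and P49 (right). Points are log2 differences, bars limma's standard errors (n = 3 a group), and orange points are the called genes, which are Gpx3, Gpx8 and Mgst1 at P49 only. Most other points lie within 0.5 of 0.

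No soluble glutathione transferase was called between genotypes, and 9 of the 18 on the array were below the filter. Of the 9 tested, 5 were positive and 4 negative at P49. Gsta4, which conjugates the lipid peroxidation product hydroxynonenal, read 13.10, 13.19 and 13.21 in wild type and 13.47, 13.43 and 13.48 in null at P49, without overlap. Its P49 difference was 0.29 ± 0.11 (limma, adjusted p = 0.282). Gstt1 differed by 0.27 ± 0.17 and Gstp1, a major brain transferase, by 0.04 ± 0.09. Gstm1 read 14.83, 14.86 and 14.87 in wild type and 14.89, 14.88 and 14.87 in null at P49, a difference of 0.02 ± 0.16. The further tested probe sets of Gstm1 gave P49 differences of -0.52, -0.18 and 0.16, so its probe sets did not share a direction. Mgst3, the other membrane-bound transferase tested, differed by -0.15 ± 0.10, and Mgst2 was below the filter.

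In the enzymes that act on superoxide and hydrogen peroxide, catalase had the smallest p at P49. Cat read 12.44, 12.66 and 12.81 in wild type and 12.98, 12.96 and 12.94 in null at P49, and 12.98, 12.79 and 13.00 in wild type and 12.81, 13.24 and 12.78 in null at P21. The P49 groups did not overlap, and the null P49 animals lay within the range of the P21 animals. The P49 difference of Cat was 0.32 ± 0.14 (limma, adjusted p = 0.375). Sod1, Sod2 and Sod3, the cytosolic, mitochondrial and extracellular dismutases, differed by 0.05 ± 0.08, 0.03 ± 0.10 and 0.23 ± 0.30. In this class null P21 replicate 2 stood apart for Sod3, at 12.41 beside 10.83 and 11.17 in the other null P21 animals.

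Only Prdx2, Prdx3 and Prdx4 of the peroxiredoxins were among the members, and none of the 3 was called between genotypes. Prdx3, the mitochondrial form, read 13.26, 13.54 and 13.63 in wild type and 13.35, 13.23 and 13.33 in null at P49, and between 13.22 and 13.40 on all P21 arrays. The P49 groups overlapped and the difference was -0.18 ± 0.11 (limma, adjusted p = 0.652). Prdx2 and Prdx4, which act in the cytosol and the endoplasmic reticulum, differed by 0.01 ± 0.13 and 0.01 ± 0.14.

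Nqo1, a quinone reductase widely used as a readout of NRF2 activity, had a negative P49 difference that did not pass. It read 10.65, 10.82 and 10.92 in wild type and 10.54, 10.78 and 9.95 in null at P49, and 10.36, 10.16 and 10.26 in wild type and 10.41, 10.34 and 10.44 in null at P21. The P49 groups overlapped, and null P49 replicate 3 was the lowest of all 12 arrays. The difference was -0.37 ± 0.21 (limma, adjusted p = 0.591).

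The thioredoxin system had 13 tested genes, of which 7 were positive and 6 negative at P49 and none was called. Txn1, the cytosolic thioredoxin, differed by -0.02 ± 0.10, its reductase Txnrd1 by 0.07 ± 0.10, and the mitochondrial Txn2 and Txnrd2 by -0.12 ± 0.15 and 0.25 ± 0.25. Txnip, which binds and inhibits thioredoxin, had the largest difference of this class at P49, 0.58 ± 0.29 (limma, adjusted p = 0.488). It ranged from 11.32 to 12.46 in wild type and from 11.93 to 12.73 in null at P49, so the groups overlapped. Txndc5, a protein disulphide isomerase of the endoplasmic reticulum, read 12.41, 12.33 and 12.31 in wild type and 12.59, 12.73 and 12.65 in null at P49, without overlap, and differed by 0.31 ± 0.12 (adjusted p = 0.282). A further tested probe set of Txndc5, of nearly equal brightness, read 12.59, 12.61 and 12.38 in wild type and 12.61, 12.69 and 12.60 in null at P49. On that probe set the groups overlapped.

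The 14 genes below the filter were Gsta2, Gsta3, Gstm2, Gstm3, Gstm4, Gstm6, Gstp3, Gstt2, Gstt3, Mgst2, Gpx5, Gpx6, Txndc8 and Txnrd3. Their group means ran from 5.53 to 10.12, and 11 of them were below the filter level in all 4 groups. Whether these genes are above background is not known, since detection calls were not used here. Of the 100 probe sets, 70 reached the filter level. For 19 genes with several tested probe sets, all sets shared a sign for 14 genes at P21 and for 10 at P49, and the largest gap at P49 was 0.68, in Gstm1. When each probe set was tested by itself, Gpx3 (adjusted p = 0.00290) and Gpx8 (0.00573) were called at P49, and Mgst1 (0.0664) was not.

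Whether the genotype difference itself grew with age was tested as the P49 difference minus the P21 difference. No member passed that test, beside 0.549% of all genes. An unadjusted p under 0.05 was reached by 5 members (11.1%) beside 8.44% of all genes: Gpx8, Gpx3, Txndc5, Gclc and Gsta4. All 5 were positive, and the direction of such genes over all genes was not counted. Gpx3 entered the test only through its level in null P49 animals, so it is not counted as evidence about the group. Without Gpx3 the members' share was near that of all genes. For Gpx8 the difference grew by 1.22 ± 0.29 (limma, adjusted p = 0.0933), and for Gpx3 by 1.95 ± 0.72 (adjusted p = 0.455). It was 0.31 ± 0.17 for Mgst1 (adjusted p = 0.679) and 0.41 ± 0.16 for Gclc (adjusted p = 0.503). A genotype difference that depends on age was thus not shown for Gpx3, Gpx8 or Mgst1 at the threshold.

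**Figure D3:**
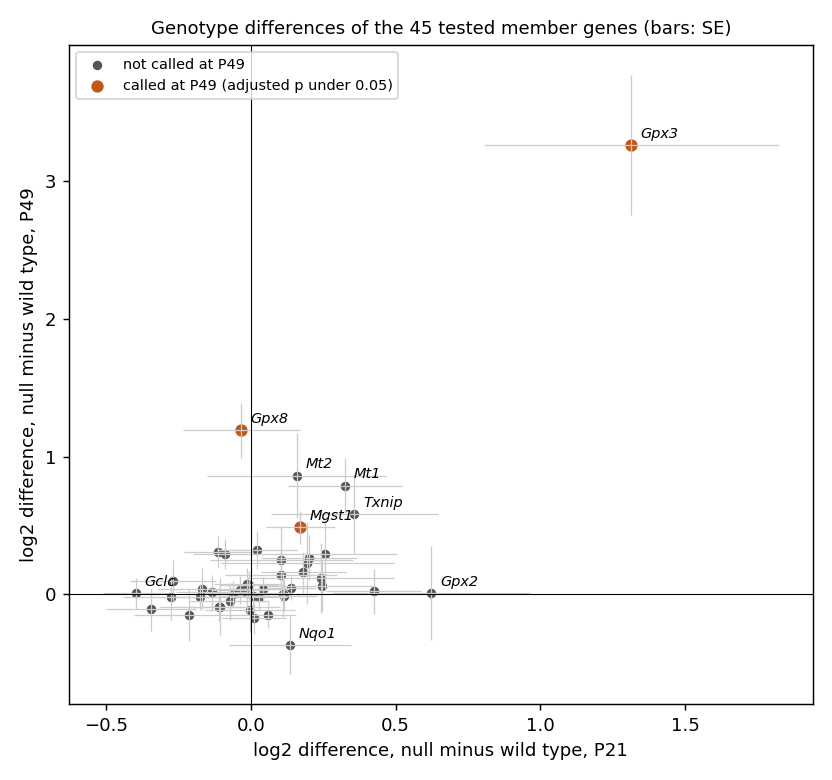
Null minus wild type difference of each tested member gene at P21 (horizontal axis) and at P49 (vertical axis), in log2 units, with limma's standard errors as bars and called genes in orange. Gpx3 lies at 1.31 and 3.26, Gpx8 at -0.03 and 1.19, Mgst1 at 0.17 and 0.49, and most of the 45 genes lie close to 0 on both axes.

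From P21 to P49, 1 member was called in wild type and 7 in null animals. In wild type, 1 member rose, 2.22% of those tested beside 0.166% of all genes, and 0 fell beside 0.536%. At an unadjusted p under 0.05, 7 members (15.6%) were higher at P49 in wild type beside 4.48% of all genes. These were Gstm1, Gstt1, Sod1, Gstp1, Mgst1, Nqo1 and Mt3. At the same level 3 members (6.67%), Txn1, Gpx8 and Mgst3, were lower beside 5.51% of all genes. In null animals, 5 members rose (11.1%) beside 2.78% of all genes, and 2 fell (4.44%) beside 3.45%. Gpx3, which entered the test only through its level in null P49 animals, is among the 5, and 4 of the other 44 members rose (9.09%). The age comparison in null animals uses the same null P49 arrays as the genotype comparison, so the values of Gpx3, Gpx8 and Mgst1 in both are not independent. Cell type markers also changed with age. In null animals 13 of 14 tested microglia markers rose, 10 of 12 Purkinje cell markers and 4 of 11 oligodendrocyte markers fell, and in wild type 6 of 11 oligodendrocyte markers fell and no microglia or Purkinje cell marker was called. Their part in the age changes of the members was not tested.

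Gstm1, a mu-class transferase, rose with age in wild type. It read 14.19, 14.09 and 13.95 at P21 and 14.83, 14.86 and 14.87 at P49 in wild type, without overlap. In null animals it read 14.07, 14.98 and 14.46 at P21 and 14.89, 14.88 and 14.87 at P49, where null P21 replicate 2 was above all P49 animals. The change in Gstm1 was 0.78 ± 0.16 in wild type, a 1.71-fold rise (limma, adjusted p = 0.0470), and 0.38 ± 0.16 in null (adjusted p = 0.210). The wild-type call was lost in 18 of 26 alternatives, among them the loss of any 1 array except null P21 replicates 1 and 2, with adjusted p from 0.000695 to 0.222. Gstm1 is read by a probe set that can share signal with other mu-class genes. Its other tested sets changed by 0.24, 0.70 and 0.66 in wild type.

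Mgst1 rose in null animals by 0.70 ± 0.12 between the ages, 1.63-fold (limma, adjusted p = 0.00393), and passed under all 25 alternatives. In wild type its change was 0.39 ± 0.12 (adjusted p = 0.224), with no overlap between the ages in either genotype. Its relative Mgst3 went the opposite way. Mgst3 read 15.33, 15.08 and 15.34 in null P21 animals and 14.96, 14.73 and 14.80 in null P49 animals, and 15.28, 15.14 and 15.16 and then 15.03, 14.92 and 14.98 in wild type. The P49 animals were below the P21 animals without overlap in both genotypes. Mgst3 fell by 0.42 in null animals (SE 0.10, adjusted p = 0.0189) and its change in wild type was -0.21 ± 0.10 (adjusted p = 0.461). The fall did not pass without null P49 replicate 2 (adjusted p = 0.107) or null P49 replicate 3 (0.0789).

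Gstt1, a theta-class transferase, read 11.42, 11.18 and 11.75 in null P21 animals and 12.06, 12.06 and 12.38 in null P49 animals. In wild type it read 11.23, 11.11 and 11.40 and then 11.80, 11.82 and 12.06. The ages did not overlap in either genotype. The rise in null animals was 0.71 ± 0.17 (limma, adjusted p = 0.0224), and in wild type the change was 0.65 ± 0.17 (adjusted p = 0.138). The difference between these changes was 0.07 ± 0.23 (adjusted p = 0.974). The rise in null animals did not pass without null P49 replicate 2 (adjusted p = 0.0599) or null P49 replicate 3 (0.113).

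Gsta4 read 13.05, 12.91 and 12.76 in null P21 animals, which all lay below the 13.43 to 13.48 of null P49 animals. In wild type it read 12.92, 12.88 and 13.18 at P21 and 13.10, 13.19 and 13.21 at P49, where the ages overlapped. The rise in null animals was 0.56 ± 0.11 (limma, adjusted p = 0.00959), and the change in wild type 0.18 ± 0.11 (adjusted p = 0.676). Without the 4 arrays that went against their sex label, the change in null animals was 0.41 and did not pass (adjusted p = 0.118).

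Gclc rose in null animals by 0.47 ± 0.11 between the ages (limma, adjusted p = 0.0261), from the low P21 values given above to the level of wild-type animals. Its change in wild type was 0.07 ± 0.11 (adjusted p = 0.924). The call was lost in 8 of 26 alternatives, among them the fits without null P49 replicate 1 (adjusted p = 0.0521), 2 (0.110) or 3 (0.0892) and the fit without the 4 arrays (0.37, adjusted p = 0.161). Gpx3 rose in null animals by 2.13 ± 0.51 (adjusted p = 0.0264) and changed by 0.18 ± 0.51 in wild type (adjusted p = 0.967). With the tested genes kept, its rise with age did not pass without null P49 replicate 2 (1.96, adjusted p = 0.115), without null P49 replicate 3 (2.06, 0.103) or without the 4 arrays (2.78, 0.0572). It also did not pass without null P21 replicate 1 (adjusted p = 0.0638).

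Txn1 read 15.04, 14.97 and 14.90 in null P21 animals and 14.62, 14.61 and 14.57 in null P49 animals, and 15.07, 14.89 and 14.87 and then 14.82, 14.50 and 14.54 in wild type. The P49 animals were below the P21 animals in both genotypes without overlap. Txn1 fell by 0.37 in null animals (SE 0.10, limma, adjusted p = 0.0404), and its change in wild type was -0.32 ± 0.10 (adjusted p = 0.218). The call was lost in 12 of 26 alternatives, among them those without any 1 null P49 array, replicate 2 of wild type P21, replicate 1 of null P21 or replicate 3 of wild type P49 (adjusted p from 0.0560 to 0.133). It was also lost without the 4 arrays that went against their sex label (-0.45, adjusted p = 0.0883) and without the 3 of them at P21 (-0.44, 0.0655). With the average of both probe sets, of which the further set lies below the filter, the sign turned to 0.49. Sod1 and Gstp1 were higher at P49 without overlap in both genotypes, by 0.33 ± 0.08 and 0.30 ± 0.09 in wild type and by 0.24 and 0.29 in null, and neither passed. A further tested probe set of Sod1 went the other way. Its mean was 11.64 at P21 and 11.52 at P49 in wild type, and 11.72 and then 11.48 in null.

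**Figure D4:**
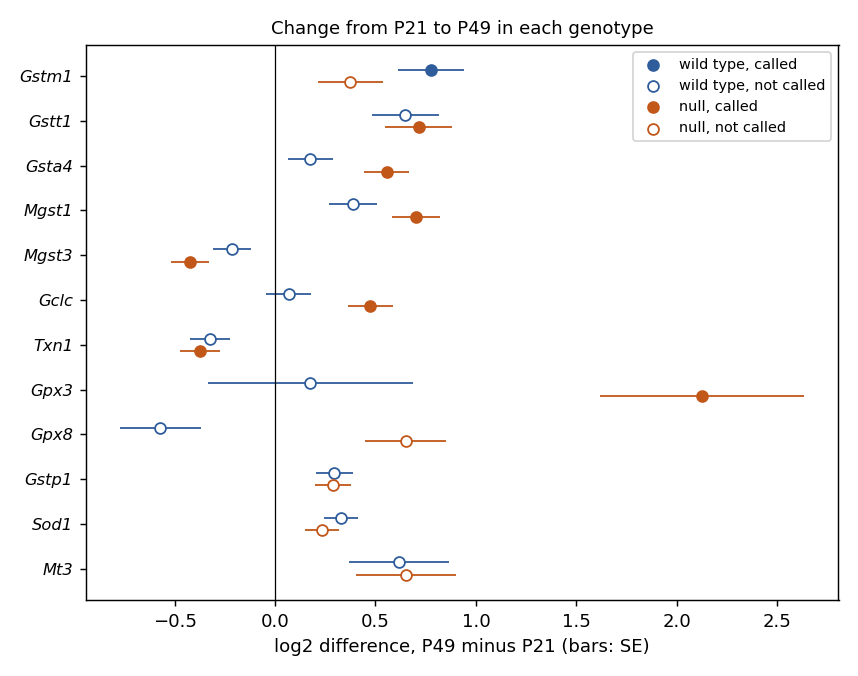
Change from P21 to P49 of 12 member genes in wild type (blue) and null (orange) animals, in log2 units, with limma's standard errors as bars (n = 3 a group). Filled points are called genes, open points did not pass. Gstm1 is the only filled point in wild type, and 7 genes are filled in null, of which Mgst3 and Txn1 lie below 0.

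Replicate spread set what could be seen. The median SD of the 45 genes within a group was 0.12 in wild type P21, 0.19 in null P21, 0.12 in wild type P49 and 0.10 in null P49. The largest SD was that of Gpx3 in wild type P21, 1.41, and in null P21 that of Sod3, 0.83.

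Genes that work around these enzymes showed few called differences at P49. None of the 8 tested NRF2 regulators was called, and Nfe2l2 itself had the smallest p, with 11.37, 11.45 and 11.67 in wild type and 11.79, 11.94 and 11.95 in null, a difference of 0.40 ± 0.16 (limma, adjusted p = 0.309). Of 12 further NRF2 target genes tested, 0 were called, and the smallest p was that of Blvrb, biliverdin reductase B, at 0.53 ± 0.18 (adjusted p = 0.210). The median of these targets was 0.18, that of the members 0.04 and that of all genes tested -0.02. Also with 0 called at P49 were the 10 tested genes of glutathione precursor supply and breakdown, the 5 glutaredoxins and methionine sulfoxide reductases, the 15 further selenoprotein genes and the 9 genes of metal response and zinc transport. At an unadjusted p under 0.05 these 6 lists had 3 of 8, 4 of 12, 2 of 10, 1 of 5, 3 of 15 and 1 of 9 genes. That order is regulators, targets and then the 4 lists as given, beside 11.3% of all genes. In the same order, the P49 groups did not overlap for 2, 7, 3, 1, 4 and 2 genes, beside 23.2% of all genes. Their smallest p belonged to Lancl1 (-0.39 ± 0.16, adjusted p = 0.323), Msrb1 (0.42 ± 0.13, 0.138), Selenop, the selenium carrier (0.31 ± 0.09, 0.0867), and Cp, ceruloplasmin (0.72 ± 0.22, 0.150).

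The exception was Cyba, a membrane subunit of the superoxide-producing NADPH oxidase of phagocytes. Cyba read 10.46, 9.73 and 10.07 in wild type P49 and 12.24, 12.62 and 12.75 in null P49 animals, and rose by 2.45 ± 0.21 (limma, adjusted p = 8.58e-06). Only 2 of the 8 oxidase genes on the array were tested, and the other tested one, Rac1, differed by -0.06 ± 0.10. Of the target genes, Srxn1, sulfiredoxin, which repairs peroxiredoxins, rose with age in null animals by 0.53 ± 0.11 (adjusted p = 0.00930).

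Cell type markers moved with the P49 genotype difference. Of 14 tested microglia markers 13 rose, with a median difference of 2.71. The mean level of the 18 microglia markers was 9.84 to 10.09 on wild-type P49 arrays and 12.55 to 12.79 on null P49 arrays, and 9.96 to 10.13 and 10.86 to 11.03 on the P21 arrays. Of 12 Purkinje cell markers 10 fell, and of 14 markers of astrocytes and Bergmann glia 2 rose, Gfap by 3.30 and Aqp4 by 0.94. Those 14 markers did not share a direction: 9 differences were positive and 5 negative, the lowest -0.44, with a median of 0.11. The part of these cell types in the P49 genotype difference of Gpx3, Gpx8 and Mgst1 was not tested.

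Markers of tissue next to the cerebellum had higher mean levels on the null P49 arrays than on the wild-type P49 arrays, with few genes called. The 8 choroid plexus markers had a mean level of 8.01 to 9.03 on wild-type P49 arrays and 9.46 to 12.26 on null P49 arrays, and 8.52 to 11.10 and 8.23 to 11.95 on the P21 arrays. None of the 3 tested was called, and their median difference was 1.91. The 11 markers of meninges and fibroblasts had a mean level of 11.24 to 11.58 and 11.90 to 11.96 in wild type and null at P49, and 1 of them, Fmod, rose. The choroid plexus gene Ttr read 15.03, 14.36 and 12.76 on the wild-type P49 arrays and 17.61, 16.23 and 17.66 on the null P49 arrays, without overlap. On the P21 arrays it read 12.34, 17.52 and 17.39 in wild type and 12.58, 17.37 and 16.45 in null. The part of these tissues in the P49 genotype difference of Gpx3, Gpx8 and Mgst1 was not tested.

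**Figure D5:**
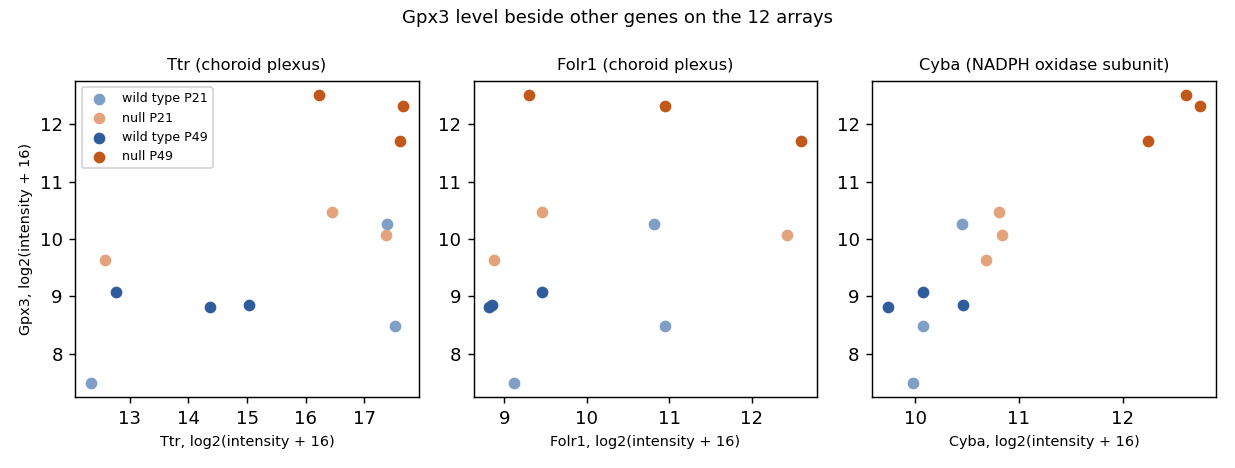
Gpx3 level on each of the 12 arrays beside the levels of Ttr and Folr1 (choroid plexus) and Cyba (NADPH oxidase), all as log2(intensity + 16). Each point is 1 animal, coloured by group. The 3 null P49 animals are the highest for Gpx3 and for Cyba, and their Ttr levels, 16.23 to 17.66, are above those of the wild-type P49 animals, 12.76 to 15.03, and overlap those of P21 animals.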

How the data were processed

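The values the authors deposited are linear intensities, 1 for each probe set of an array. How probes were summarised and scaled is not given in the sources; trimming the top and bottom 2% left a mean of 5002 for all 12 arrays, and log2 medians ran from 10.65 to 10.92. Age was taken from the time point labels, since a shared protocol states P21 for every animal. Intensities were transformed as log2(value + 16), which understates changes of dim genes, and quantile normalised. Genes were named through the platform annotation, updated by Entrez identifier with RefSeq (GRCm38.p6), and no member symbol changed. Each gene was read by its brightest probe set. Of 12393 genes, 7835 had a mean at or above the 40th percentile of probe sets without controls (intensity 959). All 12 arrays entered 1 limma fit (limma 3.58.1, R 4.3.3) of 4 group means with eBayes and a mean-variance trend, for 5 two-sided comparisons, tested on simulated data. Values on every array are given for members called in a comparison and for the member with the smallest P49 p in each class without one. Other genes with array values (Mt2, Txndc5, Txnip, Sod3) were chosen after their values were seen. The members and gene lists were chosen with earlier results of these data known. The number of arrays limits the precision.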

Additional observations from a re-analysis of the deposited data

How the results depend on the processing

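The counts of members called between genotypes at P21 (0 in each direction) and lower in null at P49 (0) held under all 26 alternatives, as did the 0 members lower at P49 in wild type and the 0 with a negative interaction. For the 0 called members at P21, 4 had an unadjusted p under 0.05 in limma. Members higher in null at P49 numbered 3, but 1 with the filter on wild-type arrays, which leaves Gpx3 untested, and 1 to 4 with each array left out. Mgst1 was lost, leaving 2, with values as deposited, arrays centred on their medians, no filter, the filter at the 20th percentile, every probe set tested by itself or no trend, and 2 were also called with averaged probe sets. Mt1 was added, giving 4, with pseudocount 64, only the groups compared, or without the 3 arrays. The fits without null P49 replicates 2 or 3 (1 each) also leave Gpx3 untested. A positive interaction was called for 1 member, Gpx8, without the mean-variance trend, and for 0 with each array left out. Members higher at P49 in wild type (1) numbered 0 with values as deposited, arrays centred on their medians, no filter, the filter at the 20th percentile, averaged probe sets, every probe set tested by itself or no trend, 2 with only the groups compared, 3 without the 3 arrays or the 4 arrays that went against their sex label, and 0 to 2 with each array left out. Members higher at P49 in null (5) numbered 3 with arrays centred on their medians or averaged probe sets, 2 with only the groups compared, and 2 to 7 with each array left out. Members lower at P49 in null (2) numbered 1 with no filter, every probe set tested by itself, no trend, or without the 3 or the 4 arrays, 0 with averaged probe sets or only the groups compared, and 0 to 2 with each array left out. Txn1 in null turned from -0.37 to 0.49 with averaged probe sets. Except where a setting left a gene untested or used fewer arrays, the cause was not tested. Centring on the medians moved the median of all genes to -0.13 for age in null and to -0.10 for the interaction.

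The replicate numbers did not meet the bar for pairing the animals, a correlation over 0.1 in every pair: deviations of same-numbered arrays correlated at -0.18 to 0.19 over 18 pairs and 7 of 12 arrays correlated best with their own number, a hint from the data and not from the design. With the replicate block, 3 members were called higher at P49 (Gpx3, Gpx8 and Mt1 at 0.0133, whereas Mgst1 had an adjusted p of 0.0783), and 1 member was called with age in wild type (Gstt1 in place of Gstm1), with 5 higher and 2 lower in null. The fit without the 4 arrays, and those that keep the tested genes for Gpx3, were chosen after seeing the data. Leaving out arrays left null P21 with 1 animal in the fits without 3 or 4 arrays, which is assumed to vary like the others. Dim genes, such as Gpx3 in wild type, have an uncertain fold.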
